A study of Mus musculus with 3 samples.

Results

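Transcripts of red cells, platelets, neutrophils and lymphocytes were followed in bulk RNA libraries of brain microvascular fragments, which are pieces of capillary and adjoining small vessel released from brain tissue. The genes described are the 37 listed erythroid, platelet, neutrophil and lymphocyte genes, taken from the count table by their symbols; all 37 were among its 56941 genes. They comprise 12 erythroid, 10 platelet, 9 neutrophil and 6 lymphocyte genes. The listed genes were chosen with earlier results of these data known. The material came from the brains of adult wild-type mice of the C57BL/6J strain. The labels give neither sex nor exact age. The 3 libraries (replicates 1, 2 and 3, from 3 mice by the series' design text, which ties no library to a mouse) form a single group with no treatment and no control, so values are set beside each other library by library. Each library was made from 400 ng of total RNA by selection of polyadenylated RNA and was sequenced in paired reads of 150 bp.

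Blood reaches such preparations as cells held in the vessel lumen or brought along during dissection. Mature red cells have no nucleus, but young ones, the reticulocytes, still carry messenger RNA for alpha and beta globin and for the enzyme that starts heme synthesis. Platelets likewise keep messenger RNA made in the megakaryocyte, among it that of granule chemokines and of adhesion receptors. Neutrophils fill their granules in a set order while they mature in the marrow: azurophil granule enzymes are made first, specific granule proteins later, and the calcium-binding proteins S100a8 and S100a9 are abundant in the finished cell.

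Depth was 128428355, 136672205 and 150449539 counts in replicates 1, 2 and 3. Values are counts per 1000000 counts of the library (CPM), on library sizes scaled by edgeR's TMM factors, and 3 counts, the limit that a count of 0 allows, correspond to 0.0231, 0.0215 and 0.0207 CPM. The endothelial genes Cldn5, Pecam1, Cdh5, Flt1 and Slc2a1, which mark the tissue, summed to 13856, 14920 and 17998 CPM. Mitochondrial transcripts took 3.29%, 1.75% and 1.65% of the counts, and 5 pituitary genes summed to 19.2, 1431 and 17.0 CPM. Replicate 1 thus stood apart by its mitochondrial share and replicate 2 by pituitary transcripts. In both, the 5 choroid plexus genes were higher than in replicate 3, with sums of 6831, 8144 and 5031 CPM. An unadjusted p under 0.05 in edgeR's dispersion test was found for 3 of them. They were Kl (260.3, 196 and 127 CPM), Clic6 (143, 100.02 and 80.5 CPM) and Folr1 (61.1, 54.9 and 38.8 CPM). Kl, Clic6, Folr1 and also Kcne2 (37.9, 34.5 and 26.1 CPM) ranked the libraries as the adult globins did. Ttr was instead highest in replicate 2 (6329, 7759 and 4759 CPM). Leaving mitochondrial counts out of the library totals gave erythroid median log2 folds of 2.53 for replicate 1 over 2 and 2.00 for replicate 1 over 3, the same to 2 decimals as with them. The part of the pituitary and choroid plexus transcripts in the values below was not tested. In bulk RNA, more cells of a type and more RNA per cell cannot be told apart.

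The adult globin genes come in pairs of near-identical copies, and their sequences show how far reads can be assigned to one copy. In the GENCODE M21 transcripts, the coding sequences of Hbb-bs and Hbb-bt, the adult beta globin genes, differ at 1 of 444 bases, and those of the alpha globin genes Hba-a1 and Hba-a2 at 1 of 429 bases. Hbb-y, the beta-like globin of the embryo, differs from Hbb-bs at 114 of 444 bases. The stretch below covers coding bases 358 to 417, counted from the start codon, and includes the single base that separates the adult beta copies. Capitals mark the differing base in the first pair of lines and the bases that differ from Hbb-bs in the Hbb-y line.
Hbb-bs: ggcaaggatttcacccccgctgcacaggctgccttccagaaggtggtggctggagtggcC
Hbb-bt: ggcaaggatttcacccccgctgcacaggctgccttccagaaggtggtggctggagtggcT
Hbb-y: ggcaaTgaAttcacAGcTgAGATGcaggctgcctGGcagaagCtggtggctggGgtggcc
Over the full transcripts, 58.7% of the 150-base windows of Hbb-bs also occur in Hbb-bt, and 48.4% of those of Hba-a1 occur in Hba-a2. The split of counts within each adult pair is therefore uncertain, whereas no 150-base window of Hbb-bs (0 of 479) occurs in Hbb-y.

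The promoters of the globin genes and of Alas2 are shown because these genes include all members called in the test given further on. Each line gives the 150 bases before the annotated start, from RefSeq on build GRCm38.p6, which is not the build named for the counts. Capitals mark CACCC (the core bound by Kruppel-like factors), GATA (the core bound by GATA factors), CCAAT and TATAA, each on either strand, and neighbouring or overlapping matches run together.
Hbb-bs, chr7:103827929-103828078, minus strand: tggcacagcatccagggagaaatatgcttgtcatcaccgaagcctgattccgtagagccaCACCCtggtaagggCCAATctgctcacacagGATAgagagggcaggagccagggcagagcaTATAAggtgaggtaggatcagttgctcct
Hbb-bt, chr7:103813924-103814073, minus strand: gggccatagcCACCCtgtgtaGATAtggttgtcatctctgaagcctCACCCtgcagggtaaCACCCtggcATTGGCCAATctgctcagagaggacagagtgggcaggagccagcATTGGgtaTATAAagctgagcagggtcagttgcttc
Hba-a1, chr11:32283522-32283671, plus strand: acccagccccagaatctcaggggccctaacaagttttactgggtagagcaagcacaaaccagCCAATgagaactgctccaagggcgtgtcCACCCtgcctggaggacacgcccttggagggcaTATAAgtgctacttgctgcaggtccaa
Alas2, chrX:150547267-150547416, plus strand: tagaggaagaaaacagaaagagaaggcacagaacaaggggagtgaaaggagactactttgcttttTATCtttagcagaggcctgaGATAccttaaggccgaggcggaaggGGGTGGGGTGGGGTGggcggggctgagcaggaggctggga
Hbb-y, chr7:103853208-103853357, minus strand: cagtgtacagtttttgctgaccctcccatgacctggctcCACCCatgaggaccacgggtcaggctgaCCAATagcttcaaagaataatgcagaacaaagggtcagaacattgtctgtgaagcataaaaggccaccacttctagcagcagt
The Hba-a2 window is not printed, since its promoter matched that of Hba-a1 at all 297 bases compared once shifted by 3 bases. CACCC occurred in 6 of these 6 promoters, CCAAT in 5, TATAA in 4 (the adult globin genes) and GATA in 3 (Hbb-bs, Hbb-bt and Alas2). Among all 32851 RefSeq promoter windows of this length, 37.4% held CACCC, 35.7% GATA, 24.5% CCAAT and 14.2% TATAA. These are letter matches only.

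Globin transcripts were far more abundant in replicate 1 than in the other libraries. Hbb-bs had 599, 69.8 and 32.6 CPM in replicates 1, 2 and 3. Hba-a1 had 245, 32.8 and 14.8 CPM. The other copy of each pair was lower, with 112, 15.2 and 7.52 CPM for Hba-a2 and 102, 12.6 and 6.15 CPM for Hbb-bt. All 4 adult globin genes thus ranked the libraries alike, replicate 1 highest and replicate 3 lowest. Replicate 1 exceeded replicate 3 by 14.9-fold (Hba-a2) to 18.4-fold (Hbb-bs) and replicate 2 by 7.39-fold to 8.58-fold, while replicate 2 exceeded replicate 3 by 2.02-fold to 2.21-fold. For Hbb-bs the 95% counting interval of the fold was 17.8 to 18.9 for replicate 1 over replicate 3 and 2.07 to 2.22 for replicate 2 over replicate 3. Such intervals are exact binomial ones; they cover counting error only, since no molecular identifiers are named.

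Together the adult globin genes held 0.107% of all counts in replicate 1, 0.0133% in replicate 2 and 0.00589% in replicate 3 (95% Clopper-Pearson intervals 0.107% to 0.108%, 0.0131% to 0.0135% and 0.00577% to 0.00602%). Their proportions to each other moved much less than their levels. The ratio of Hbb-bs to Hbb-bt counts was 5.87, 5.53 and 5.30 and that of Hba-a1 to Hba-a2 was 2.18, 2.16 and 1.97. The ratio of Hba-a1 to Hbb-bs was 0.409, 0.470 and 0.455, or 0.510, 0.582 and 0.577 with the copies of each chain summed. These ratios do not depend on the scaling between libraries. Scaled by exonic length in GENCODE M21, mean levels over the 3 libraries were 304 ± 412 CPM per kilobase for Hbb-bs, 120.1 ± 158 for Hba-a1, 67.4 ± 87.4 for Hba-a2 and 57.3 ± 76.2 for Hbb-bt (SD, n = 3), so the spread exceeded the mean for each.

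Alas2, the erythroid enzyme that makes the first intermediate of heme, followed the adult globins. It had 30.6, 3.54 and 1.37 CPM in replicates 1, 2 and 3, which is 22.3-fold (interval 19.4 to 25.9) more in replicate 1 than in replicate 3. In the annotation, 15.5% of its exonic length lies under Apex2 and Mir3620 on the opposite strand. Its counts amounted to 2.89%, 2.72% and 2.24% of the adult globin counts. Slc4a1, the band 3 anion exchanger of the red cell membrane, had 150, 15 and 6 counts and 1.15, 0.107 and 0.0413 CPM. Replicate 1 again stood far above both other libraries, by 10.7-fold (interval 6.31 to 19.7) over replicate 2 and 27.9-fold (12.5 to 77.2) over replicate 3. Slc4a1 was too low in replicate 3 to enter the test across genes.

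Hbb-y did not follow the adult globins. It had 10.9, 2.40 and 10.2 CPM in replicates 1, 2 and 3, from 1423, 336 and 1479 counts. Replicates 1 and 3 were alike for this gene (ratio of replicate 1 to replicate 3 of 1.07, interval 0.997 to 1.15), and replicate 2 lay 4.55-fold below replicate 1. Hbb-y counts equalled 1.83%, 3.44% and 31.3% of the Hbb-bs counts. The other embryonic globin genes in the table gave almost nothing: Hba-x, Hbb-bh1 and Hbb-bh2 had 0 counts in every library, Hbq1a had 4, 1 and 2 counts, and Hbq1b had 9, 3 and 0.

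The rest of the erythroid members showed no excess in replicate 1. Epor, the erythropoietin receptor, which endothelial cells express as well, had 2.21, 2.91 and 2.92 CPM in replicates 1, 2 and 3. Ank1, the ankyrin that ties the red cell skeleton to the membrane and that neurons also express, had 0.830, 0.987 and 1.09 CPM. Klf1, the erythroid Kruppel-like transcription factor, had 11, 23 and 20 counts. Replicate 1 was the lowest library for all 3 genes, and its interval against both other libraries excluded equality for Epor alone. Epb42, the membrane skeleton protein 4.2, had 2, 1 and 4 counts. No count fell on Rhag, the Rh-associated glycoprotein, in any library, which allows up to 0.0231, 0.0215 and 0.0207 CPM.

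**Figure D1:**
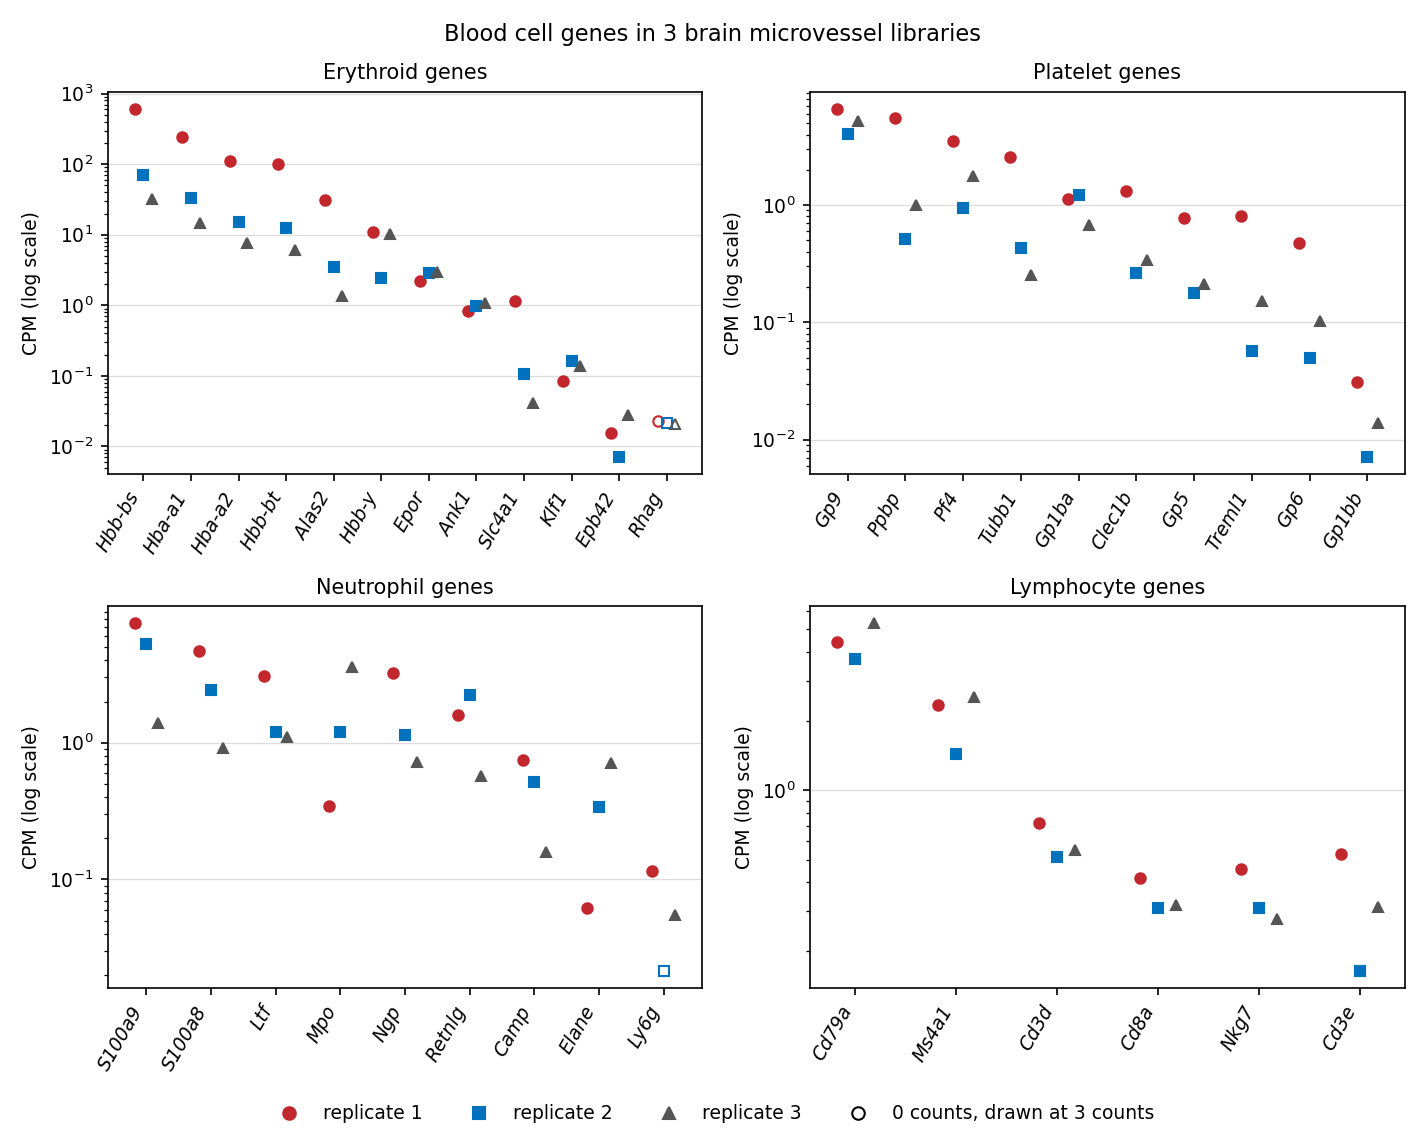
CPM of each listed gene (log axis) in replicates 1, 2 and 3, by lineage; 1 point is 1 library, and open symbols mark a count of 0 drawn at the level of 3 counts. The adult globins, Alas2 and Slc4a1 are highest in replicate 1, Hbb-y is alike in replicates 1 and 3, and Mpo and Elane are highest in replicate 3.

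In the only test that a single group allows, 5 of the listed genes varied between libraries by more than genes of similar abundance. The test compares each gene's own spread with the trend over all genes, and 29 of the 37 members had enough counts in all 3 libraries to enter it. By edgeR's quasi-likelihood dispersion test, adjusted over 18087 genes, Hba-a1, Hba-a2 and Hbb-bt varied with an adjusted p of 0.0133 each, Hbb-bs with 0.0156 and Alas2 with 0.0217. Of all tested genes 0.0829% were called (15 genes), so members made up 5 of the 15 calls. The next members by the same edgeR test were Ppbp (adjusted p = 0.255), then Hbb-y, Tubb1 and Mpo (0.323 each), which did not pass. Unadjusted p lay under 0.05 for 18 of the 29 members and for 937 of the 18087 genes. The 8 members not tested were Slc4a1, Epb42, Rhag, Gp1bb, Gp6, Treml1, Ly6g and Elane. Replicate 1 carries these calls: without it edgeR called 0 members (11 of 30 tested at an unadjusted p under 0.05) and 7 of 18436 genes. Without replicate 2 it called 12 of 31 tested members and 80 of 18362 genes. Without replicate 3 it called 6 of 30 tested members and 33 of 18482 genes. With a robust prior edgeR called 0 members and 0 genes, with 8 members and 785 genes at an unadjusted p under 0.05. DESeq2, in contrast, marked 13 of the listed genes and 137 of 30513 genes in all as dispersion outliers.

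**Figure D2:**
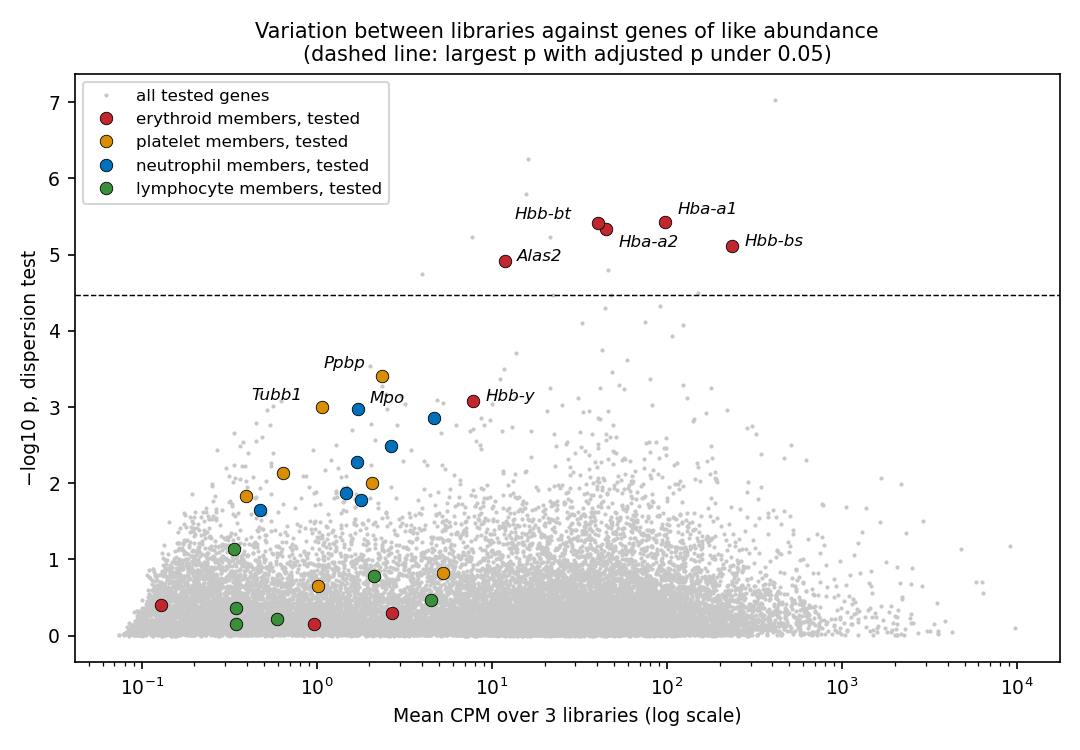
Unadjusted p of the dispersion test (as −log10) against mean CPM over 3 libraries (log axis) for all 18087 tested genes in grey and the 29 tested members in colour. The 4 adult globin genes and Alas2 lie above the dashed line, while the lymphocyte genes, Epor and Ank1 lie near the bottom.

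Median fold differences between replicate 1 and each other library were largest for the erythroid and platelet genes by the medians over members given here. Replicate 1 was at 2-fold or more over replicate 2 for 14 of the 29 tested members, against 1.84% of all tested genes, and at 2-fold or more below it for 1, against 1.48%. Against replicate 3 the counts were 15 members higher, beside a background of 2.76%, and 1 lower, beside 0.918%. Replicate 2 was at 2-fold or more over replicate 3 for 9 members, where the background was 2.37%, and below it for 2, where it was 1.26%. Each such fold has 1 library on either side, so no test goes with it. On the log2(CPM + 0.02) scale the median over the 12 erythroid members was 2.53 for replicate 1 over 2 and 2.00 for replicate 1 over 3. Without Epor and Ank1, which other cells of the brain or vessel wall express, the erythroid median for replicate 1 over 3 was 3.97. The 10 platelet members had medians of 2.12 and 1.84, the 9 neutrophil members 0.52 and 1.48, and the 6 lymphocyte members 0.50 and 0.37. For replicate 2 over 3 the medians were 0.62, -0.35, 0.65 and -0.30 in the order erythroid, platelet, neutrophil and lymphocyte. The differences between lineages were not tested. The order of the first 3 lineages rests on the low genes: with a pseudocount of 1 CPM the medians for replicate 1 over 3 were 0.57 for erythroid, 0.61 for platelet and 0.72 for neutrophil genes. The median over all tested genes was between -0.01 and 0.00 for each pair.

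**Figure D3:**
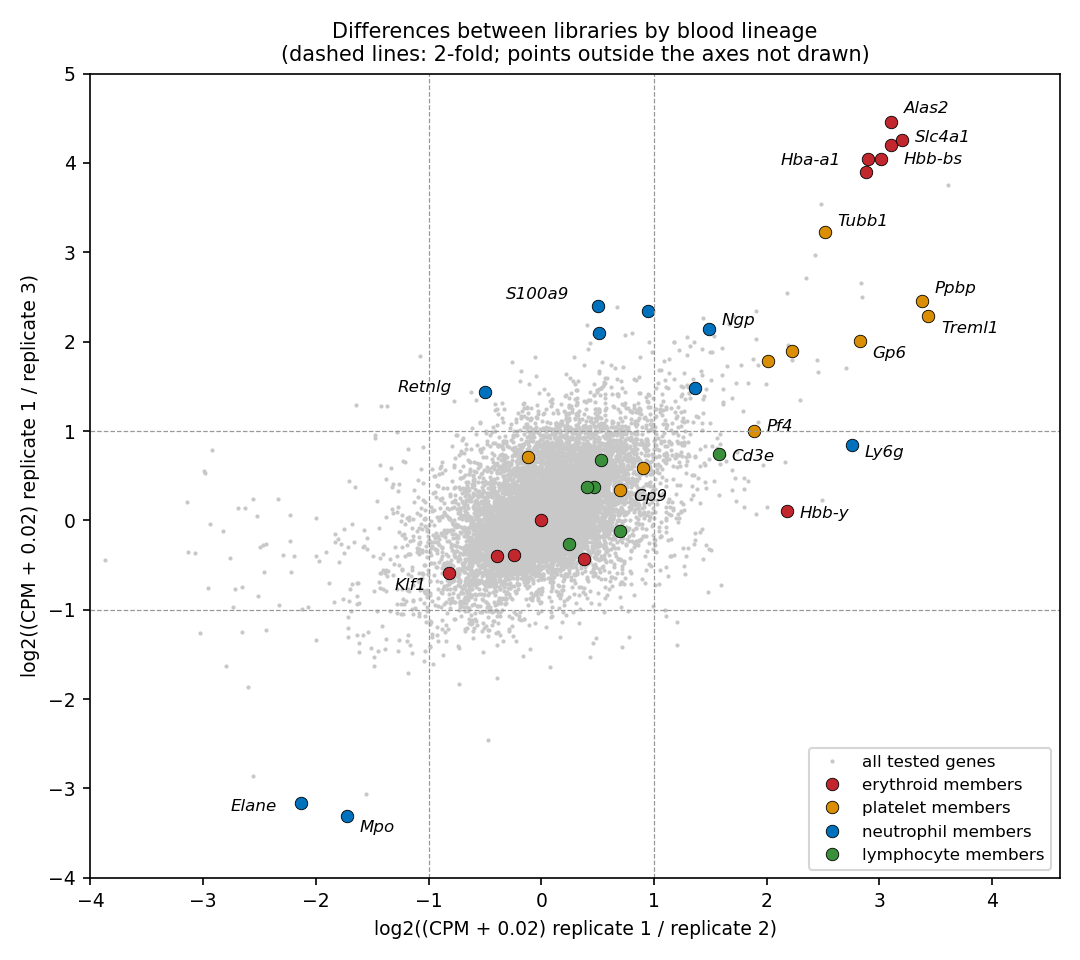
Log2 ratio of CPM + 0.02 in replicate 1 to replicate 2 (x axis) and to replicate 3 (y axis) for all tested genes in grey and the 37 members by lineage. Adult globins, Alas2 and Slc4a1 cluster at the upper right, most platelet genes lie to the right below them, most neutrophil genes lie high near the centre, and Mpo and Elane lie at the lower left.

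All platelet members but Gp1ba had their highest level in replicate 1 too, and most of them were lowest in replicate 2, whereas the adult globins were lowest in replicate 3. The interval of replicate 2 over replicate 3 lay below 1 for only 4 of the 10 platelet members, and above 1 for 2. Ppbp, which encodes a chemokine of the alpha granule, had 5.56, 0.515 and 0.999 CPM in replicates 1, 2 and 3. Treml1, an alpha granule membrane receptor, had 106, 8 and 22 counts. Gp6, the collagen receptor, had 62, 7 and 15 counts. For these genes replicate 2 had the lowest value, but for Gp6 its interval against replicate 3 (0.167 to 1.26) included equality. Replicate 1 exceeded replicate 2 by 10.8-fold (interval 8.46 to 13.9), 14.2-fold (6.97 to 33.8) and 9.51-fold (4.35 to 24.6). Replicate 1 exceeded replicate 3 by 5.56-fold, 5.37-fold and 4.61-fold, less than the 14.9-fold or more of the adult globins.

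Clec1b, the platelet receptor for podoplanin, had 1.31, 0.265 and 0.338 CPM in replicates 1, 2 and 3. Tubb1, the tubulin of the platelet's marginal ring, had 2.55, 0.429 and 0.255 CPM. It was the platelet gene nearest to the globin order, with replicate 3 lowest and a fold of 10.01 (interval 7.11 to 14.5) for replicate 1 over replicate 3. Pf4, the other alpha granule chemokine, had 3.53, 0.937 and 1.76 CPM, and in the mouse it is also made by macrophages at the borders of the brain. The 7 border macrophage genes, Pf4 among them, summed to 34.8, 21.1 and 31.4 CPM, with Mrc1 at 13.05, 7.53 and 11.7 CPM, and they too were lowest in replicate 2. Their part in the Pf4 values was not tested.

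The subunits of the platelet receptor for von Willebrand factor differed from each other. Gp5 had 0.784, 0.179 and 0.214 CPM in replicates 1, 2 and 3, a 3.67-fold (interval 2.43 to 5.68) difference between replicates 1 and 3. Gp9, the highest platelet member per kilobase of exon (5.96 ± 1.44 CPM per kilobase, SD, n = 3), had 6.55, 4.02 and 5.18 CPM, and Gp1ba had 1.13, 1.23 and 0.682 CPM. These had flatter profiles, with 1.27-fold for Gp9 and 1.66-fold for Gp1ba in replicate 1 over replicate 3. Gp1bb, the remaining subunit, had 4, 1 and 2 counts; 92.9% of its exonic length in GENCODE M21 lies under exons of Sept5 and Gm49601 on the same strand, so its count is uncertain. Over all 10 platelet members, replicate 1 lay above both other libraries beyond counting error for 8, the exceptions being Gp1ba and Gp1bb. The share of all genes that meet this measure was not computed, and at this depth small folds can meet it too. None of the 7 tested passed edgeR's dispersion test at an adjusted p under 0.05, with 5 at an unadjusted p under 0.05. Leaving out replicate 2 brought the edgeR adjusted p to 0.000237 for Ppbp and 7.64e-05 for Tubb1, and leaving out replicate 3 brought it to 0.0265 for Ppbp.

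Neutrophil genes did not share one order over the libraries: most were highest in replicate 1, and the azurophil granule genes Mpo and Elane were lowest there. S100a9 had 7.45, 5.26 and 1.39 CPM in replicates 1, 2 and 3, and its partner S100a8 had 4.68, 2.42 and 0.909 CPM. The specific granule genes Ngp and Ltf (lactoferrin) had 3.23, 1.14 and 0.716 CPM and 3.09, 1.19 and 1.10 CPM. Camp, the cathelicidin gene, had 97, 72 and 23 counts. Replicate 1 was above both other libraries beyond counting error for these 5 genes, and replicate 3 was the lowest. The share of all genes above both others by that measure was not computed. Retnlg, a secreted protein gene of mature neutrophils, had 1.58, 2.24 and 0.572 CPM, with replicate 2 highest. Ly6g, the surface antigen used to stain mouse neutrophils, had 15, 0 and 8 counts, so its level in replicate 2 was below what this depth can show.

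The azurophil granule genes had the reverse order. Mpo, myeloperoxidase, had 0.346, 1.19 and 3.60 CPM in replicates 1, 2 and 3, from 45, 166 and 522 counts. Elane, neutrophil elastase, had 8, 47 and 103 counts. Both were lowest in replicate 1 and highest in replicate 3; the ratio of replicate 1 to replicate 3 was 0.0962 (interval 0.0693 to 0.131) for Mpo and 0.0866 (0.0364 to 0.177) for Elane. Within libraries, the count ratio of Mpo to Ngp was 0.107, 1.04 and 5.02, and that of Elane to Camp 0.0825, 0.653 and 4.48. Of the 16 further neutrophil genes 4 had the order of Mpo. They were the azurophil granule proteases Prtn3 (proteinase 3) with 16, 56 and 170 counts and Ctsg (cathepsin G) with 14, 22 and 99 counts, and also Lcn2 and Il1r2, which are not azurophil granule genes, with 23.4, 46.3 and 51.2 CPM and with 29, 39 and 49 counts. The order was thus not particular to azurophil genes. Prtn3, Ctsg and Il1r2 are named after their values were seen. None of the 7 tested neutrophil members passed edgeR's dispersion test at an adjusted p under 0.05, and all 7 had an unadjusted p under 0.05. Without replicate 2 the edgeR test called S100a8, S100a9, Ngp and Mpo (adjusted p of 0.0011, 7.64e-05, 0.00997 and 1.59e-05), among 80 of 18362 genes called in all. In the annotation, 15.0% of the exonic length of Mpo lies under Gm11505 on the opposite strand.

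**Figure D4:**
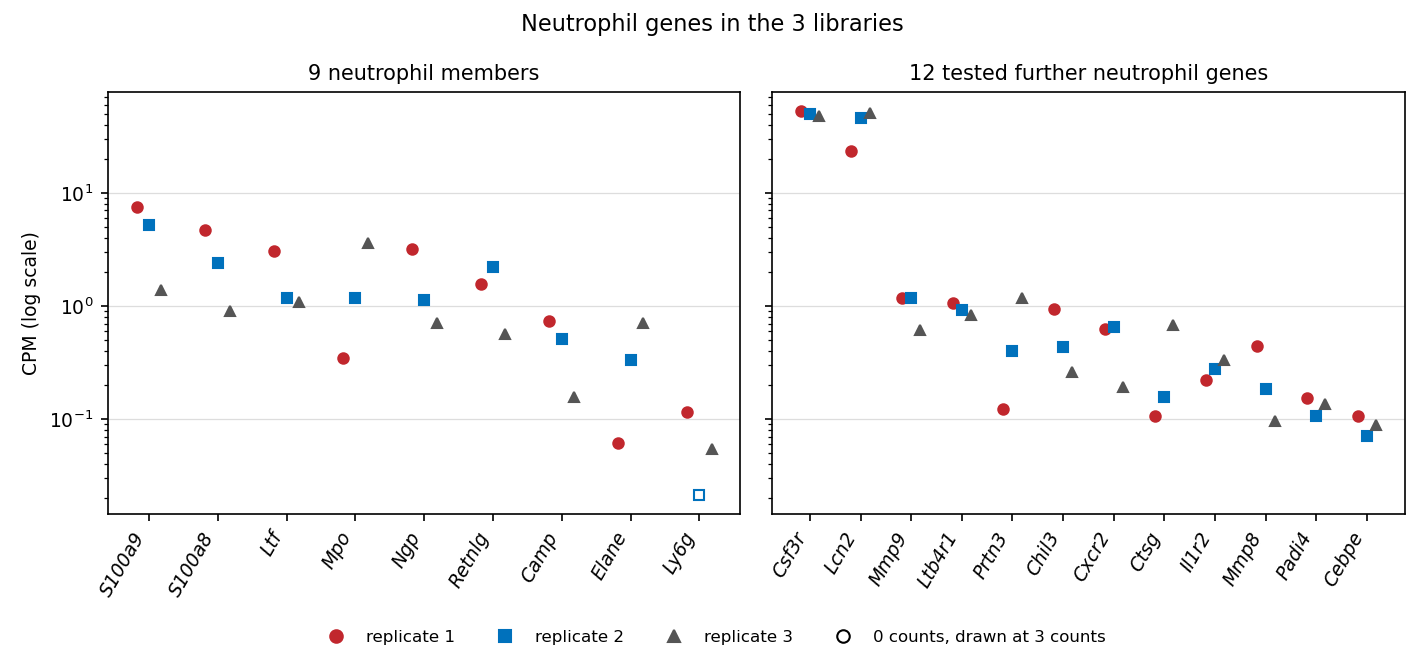
CPM (log axis) in replicates 1, 2 and 3 of all 9 neutrophil members (left) and of the 12 tested genes of the further neutrophil list (right); 1 point is 1 library, and an open symbol marks a count of 0 drawn at the level of 3 counts. Mpo, Elane, Prtn3, Ctsg, Lcn2 and Il1r2 are lowest in replicate 1 and highest in replicate 3, while Ly6g is lowest in replicate 2 and the 6 other members are lowest in replicate 3.

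Lymphocyte genes did not share one full order over the libraries, but all 6 were higher in replicate 1 than in replicate 2. The fold of replicate 1 over replicate 2 ran from 1.19 (Cd79a) to 3.22 (Cd3e), and its interval lay above 1 for 4 members. All but Nkg7 were lowest in replicate 2. The interval of replicate 2 over replicate 3 lay below 1 for 3 members and above 1 for 0. The share of all genes by these measures was not computed. Cd79a, the signalling partner of the B cell receptor, had 4.41, 3.71 and 5.31 CPM in replicates 1, 2 and 3, and Ms4a1 (CD20) had 2.34, 1.44 and 2.55 CPM. Both B cell genes were highest in replicate 3. Cd3d and Cd3e, the CD3 chains that signal for the T cell receptor, had 0.722, 0.515 and 0.551 CPM and 0.530, 0.165 and 0.310 CPM. Cd8a, the coreceptor of cytotoxic T cells, had 54, 43 and 46 counts, and Nkg7, a granule gene of killer cells, had 59, 43 and 40. These 4 genes were highest in replicate 1, but only for Cd3e did the interval exclude equality against both other libraries. Across the 6 members the fold of replicate 1 over replicate 3 ran from 0.830 (Cd79a) to 1.71 (Cd3e). All 6 were tested, with 0 calls and 0 at an unadjusted p under 0.05 in edgeR's dispersion test.

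Wider lists of each lineage, none of whose genes is a member, were counted the same way. Of the 12 further genes of heme synthesis and iron uptake, all were tested, none passed edgeR's dispersion test at an adjusted or an unadjusted p under 0.05, and none reached 2-fold between replicates 1 and 3; among the highest were Tfrc, the transferrin receptor, at 169, 163 and 154 CPM and Fech, the last enzyme of the pathway, at 48.1, 42.4 and 43.7 CPM. Among 14 genes of red cell maturation 11 were tested; Bnip3l, which clears mitochondria from maturing red cells, had 251, 216 and 219.7 CPM. Of 12 membrane genes, 7 were tested and 0 of these reached 2-fold. Of the 16 further platelet genes, 15 were tested, 6 had an unadjusted p under 0.05, and 3 were at 2-fold or more in replicate 1 over replicate 3. The most abundant of that list per kilobase was Vwf at 2245, 1793 and 2545 CPM, which endothelial cells make. No gene of these blood lists passed edgeR's dispersion test at an adjusted p under 0.05.

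Of the 16 further neutrophil genes 12 were tested, and in replicate 1 over replicate 3 there were 3 at 2-fold or more higher and 3 at 2-fold or more lower. The lower ones were Prtn3, Ctsg and Lcn2 (lipocalin 2), and the higher ones Mmp8, Cxcr2 and Chil3. Csf3r, the receptor for granulocyte colony-stimulating factor, was near level at 52.8, 49.5 and 47.4 CPM. Of the 16 T and NK cell genes 14 were tested and 2 were higher by that measure, Il2rb and Gzma. Trac, the constant region of the T cell receptor alpha chain, was the most abundant per kilobase with 5.29, 5.04 and 4.09 CPM. Of 10 B cell genes, all tested, 1 was higher, the antibody joining chain gene Jchain with 118, 21 and 36 counts, while Ighm was level at 55.6, 55.5 and 54.3 CPM. Of the 10 monocyte genes, all tested, 1 was higher, the chemokine receptor Ccr2 with 2.70, 1.18 and 1.06 CPM. Mmp8, Cxcr2, Chil3, Gzma and Jchain are named after their values were seen.

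Genes at 4-fold or more in replicate 1 over both other libraries numbered 16 among the 18087 tested, and 7 of these were members: Hbb-bs, Hba-a1, Hba-a2, Hbb-bt, Alas2, Ppbp and Tubb1. The others included Rgs18, a regulator of G protein signalling in platelets, with 137, 25 and 17 counts. Mpig6b, an inhibitory receptor of megakaryocytes and platelets, had 120, 23 and 18 counts, and Cd226, an adhesion receptor of platelets and lymphocytes, had 142, 25 and 11. The mitochondrial transfer RNA gene mt-Tc had 165, 12 and 11 counts, and Mir703, Mroh6 and Samd3 were also in the set. This likeness is over 3 libraries only and was not tested.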

How the data were processed

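The deposited table holds raw counts per gene in 3 libraries of brain microvascular fragments. The submitters' processing notes name featureCounts (Subread 1.4.6-p5) and GRCm39. The sources used here do not name an aligner, annotation release, strand setting or rule for multiply mapped reads; the kit was stranded. Counts of near-identical or overlapping genes are thus uncertain. Columns were matched to samples by library name.

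CPM were computed with edgeR 4.0.16 (R 4.3.3, TMM factors 1.01, 1.02 and 0.965). Genes kept by filterByExpr entered an intercept-only quasi-likelihood fit, in which a gene's residual variation was set against the trend over all genes (upper-tail F test, Benjamini-Hochberg over all genes, threshold 0.05), checked on simulated counts. Log2 folds used CPM + 0.02, about 3 counts. Fold intervals were exact conditional binomial intervals at 95% (scipy 1.17.1, Python 3.11.15). DESeq2 1.42.0 served as an alternative. Exonic lengths and overlaps came from GENCODE M21 (GRCm38), which matched all 37 members by symbol. All members were named; of the further lists, the genes past the test and up to 4 per list of highest mean CPM; and up to 10 others of the highest CPM at 4-fold or more in replicate 1 over both other libraries. Members and lists were chosen with earlier results of these data known. The labels do not say that replicates came from separate animals, although the design text speaks of mice; p-values measure the spread between these samples. Some genes of the further lists are not reported here.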

Additional observations from a re-analysis of the deposited data

How the results depend on the processing

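The pseudocount moved part of the values, among them those given next. Most leukocyte and platelet genes lie near or under 1 CPM. At 1 CPM the erythroid median log2 fold was 1.38 for replicate 1 over 2 and 0.57 for replicate 1 over 3, the platelet medians were 0.69 and 0.61, and the neutrophil median for replicate 1 over 3 was 0.72; members at 2-fold or more were 9 higher and 0 lower in replicate 1 over 2 and 4 higher in replicate 2 over 3. Genes past 2-fold at pseudocounts of 0.1 and 1 CPM numbered 191 and 55 higher and 159 and 62 lower in replicate 1 over 2, 298 and 68 higher and 72 and 17 lower in replicate 1 over 3, and 261 and 58 higher and 123 and 46 lower in replicate 2 over 3, as a larger pseudocount shrinks folds. Median levels at 1 CPM were 0.77 for platelet, 1.25 for neutrophil and 0.55 for lymphocyte genes, against -0.76, 0.37 and -1.09 at 0.02 CPM. With means over members the erythroid fold for replicate 1 over 2 was 1.61, the neutrophil fold for replicate 1 over 3 was 0.70, and the erythroid, neutrophil and lymphocyte levels were 1.02, -0.26 and -0.35. The erythroid fold for replicate 1 over 3 was 3.89 over tested members, 3.97 without Epor and Ank1, and 3.90 over members above 3 counts (chosen after seeing the data); over tested members the neutrophil folds were 2.10 for replicate 1 over 3 and 1.39 for replicate 2 over 3. No lineage fold changed sign under any alternative run.

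The dispersion test called 173 genes and 14 members without the filter on low counts and 0 and 0 with the robust prior; DESeq2 marked 137 genes and 13 members. Leaving out 1 replicate gave 7 to 80 genes and 0 to 12 members. In each such run the scaling, the filter and the trend were fitted again on the remaining pair of libraries. The cause of these shifts was not tested. Scaling by DESeq2 size factors or by library totals kept the 5 members called. Without mitochondrial counts in the totals, 16 members were at 2-fold or more in replicate 1 over 3, against 15. The order of lineages by fold was not stable: for replicate 2 over 3 the lymphocyte median was -0.10 at 1 CPM, against -0.08 for platelet genes, and by means it was -0.36, against -0.35. The alpha to beta globin ratio averaged 0.556 with copies summed, against 0.445 for Hba-a1 to Hbb-bs. No paired analysis was possible because all libraries belong to 1 group. Folds of genes under about 10 counts per library rest on depth too small to rank them.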
